A study of Homo sapiens with 8 samples.

Results

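The genes described here are IGF2, its noncoding neighbour H19, the receptors IGF1R and IGF2R, and the binding protein genes IGFBP1, IGFBP2, IGFBP3, IGFBP4, IGFBP6 and IGFBP7. They were chosen by name, as the rows whose Ensembl identifier carries one of these symbols. All 10 were present among the 63241 identifiers in each of the 8 deposited libraries, and all 10 passed the filter on low values. The libraries came from polyadenylated RNA of 2 human liver cancer cell lines, HepG2 and Huh7, each as parental sorafenib-sensitive cells (WT, labelled as control treatment) and as a sorafenib-resistant line (SR, labelled as sorafenib treatment), with 2 libraries per group. Sorafenib is a multikinase inhibitor, and the SR lines were obtained by the authors through stepwise exposure to rising concentrations of it. SR and WT thus differ by that history of culture and selection. If sorafenib was also present at harvest, as the treatment labels may mean, its direct effect cannot be told apart from that history. All 8 libraries carry the same batch label. No label says that the libraries of a group came from separate cultures, so each p-value measures the spread between these libraries. That spread is not known to be the spread between cultures, and part of it may be technical. In HepG2 SR, Huh7 WT and Huh7 SR it includes the differences in profile described below.

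The insulin-like growth factor axis carries growth signals through IGF1R, a receptor tyrosine kinase that binds IGF1 and IGF2 and acts through insulin receptor substrates, PI3 kinase and AKT. IGF2R, also known as the cation-independent mannose 6-phosphate receptor, takes IGF2 into the cell for degradation and does not signal as a kinase. The binding proteins hold the ligands in the extracellular fluid and limit or prolong their access to IGF1R. IGF2 and H19 are imprinted neighbours that share enhancers, IGF2 being expressed from the paternal and H19 from the maternal allele. In liver both are abundant before birth, IGF2 is often re-expressed in liver cancer, and IGFBP1 is a liver product that insulin represses.

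The libraries did not group by their labels. Over the 15173 genes tested, Pearson's r of log2(FPKM + 1) was 0.914 to 0.977 among 5 libraries that cross the labels, which are both HepG2 WT libraries, replicate 1 of HepG2 SR and the replicate 2 libraries of Huh7 WT and Huh7 SR. Replicate 1 of Huh7 WT resembled replicate 1 of Huh7 SR (r = 0.965), and both were further from those 5 (0.731 to 0.783). Replicate 2 of HepG2 SR had an r of 0.775 to 0.819 with the 5, and of 0.815 to 0.846 with the pair of Huh7 replicate 1 libraries. These 3 libraries are called the libraries that stand apart. They were picked from r over all genes, so other genes may separate them from the 5 too, and the share that does was not counted. Among liver markers, ALB (albumin) was at 11.98 and 42.3 FPKM in the Huh7 replicate 1 libraries and at 604 to 4713 FPKM in the other 6, and AFP (alpha-fetoprotein), which both lines are known to make, was at 1100 FPKM in HepG2 SR replicate 2 and at 1.07 to 35.8 FPKM elsewhere. KRT19, a keratin of bile duct and progenitor cells, was at 0.179 to 2.37 FPKM in the libraries that stand apart and at 155 to 760 FPKM in the 5, and EPCAM was at 7.03 to 11.04 against 77.1 to 157 FPKM. CD24, from the same list, ran the other way, at 266 to 325 FPKM in the libraries that stand apart and at 3.67 to 9.71 FPKM in the 5. So did the hepatocyte marker FGB (fibrinogen beta chain), at 380 and 327 FPKM in the Huh7 replicate 1 libraries, 128 FPKM in HepG2 SR replicate 2 and 0.386 to 4.51 FPKM in the 5. APOA1 spanned 17.7 to 1368 FPKM and GPC3 90.5 to 1068 FPKM. The summed level of the 10 hepatocyte and hepatoma markers was 705 and 1154 FPKM in the Huh7 replicate 1 libraries and 2441 to 8803 FPKM in the others, of the 6 bile duct and progenitor markers 282 to 1288 FPKM, and of fibroblast, endothelial and blood cell markers at most 9.03, 4.52 and 29.1 FPKM. The part of these differences in the results below was not tested. Whether some libraries carry the label of another group or line, or hold mixed lines, was not tested either, so every comparison below is between libraries as labelled. The counts of members called in SR versus WT are given with these libraries and without them. For Huh7 versus HepG2 only log2 differences of called members are given without them. Calls of other listed genes were refitted without them only in Huh7 SR versus Huh7 WT.

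H19 and IGF2 lie on chromosome 11 on the minus strand in GENCODE release 29 (GRCh38), H19 at chr11:1995176-2001470 and IGF2 at chr11:2129112-2149603, with their starts 148 kb apart. H19 is a noncoding transcript whose exonic sequence holds the hairpin of the microRNA miR-675. Both mature arms are shown because H19 was the member most restricted to a few libraries, with the seed (bases 2 to 8) in capitals, from RefSeq on GRCh38.p14.
hsa-miR-675-5p: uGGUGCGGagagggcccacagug
hsa-miR-675-3p: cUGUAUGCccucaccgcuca
The seeds of the arms differ from each other. The hairpin's own row, MIR675, was at no more than 0.0230 FPKM in any library, and polyadenylated libraries do not measure mature microRNAs, so the level of miR-675 was not measured.

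RefSeq promoters (250 bases before to 50 after a gene's start, GRCh38.p14) were matched for 7 of the 10 members, as 9 promoters. The 4 shown belong to members whose levels split the libraries, H19 and IGFBP3 on one side and IGFBP4 and IGFBP6 on the other. Capitals mark GC boxes (GGGCGG or its reverse CCGCCC) and TATA boxes (TATAAA or TTTATA), searched on both strands, and these motifs do not overlap one another here.
H19, chr11:2001217-2001516 (- strand): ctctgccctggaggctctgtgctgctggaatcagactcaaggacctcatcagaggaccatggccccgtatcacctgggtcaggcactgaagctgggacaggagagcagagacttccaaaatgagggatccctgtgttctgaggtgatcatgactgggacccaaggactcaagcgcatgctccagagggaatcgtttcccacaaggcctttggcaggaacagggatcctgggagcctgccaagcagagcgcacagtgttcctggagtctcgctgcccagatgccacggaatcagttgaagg
IGFBP3, chr7:45921223-45921522 (- strand): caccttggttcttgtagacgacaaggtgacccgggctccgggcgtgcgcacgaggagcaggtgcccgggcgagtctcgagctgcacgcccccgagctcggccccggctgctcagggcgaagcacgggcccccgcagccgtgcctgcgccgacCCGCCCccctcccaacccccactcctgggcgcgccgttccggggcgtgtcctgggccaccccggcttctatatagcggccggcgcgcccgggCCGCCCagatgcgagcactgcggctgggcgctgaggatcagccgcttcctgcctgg
IGFBP4, chr17:40443200-40443499 (+ strand): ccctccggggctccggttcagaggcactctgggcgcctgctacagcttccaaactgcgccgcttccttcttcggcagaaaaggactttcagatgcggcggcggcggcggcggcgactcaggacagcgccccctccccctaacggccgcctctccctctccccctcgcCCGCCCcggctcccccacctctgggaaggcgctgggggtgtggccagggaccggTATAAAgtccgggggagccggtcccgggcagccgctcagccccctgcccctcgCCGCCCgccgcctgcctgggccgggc
IGFBP6, chr12:53097417-53097716 (+ strand): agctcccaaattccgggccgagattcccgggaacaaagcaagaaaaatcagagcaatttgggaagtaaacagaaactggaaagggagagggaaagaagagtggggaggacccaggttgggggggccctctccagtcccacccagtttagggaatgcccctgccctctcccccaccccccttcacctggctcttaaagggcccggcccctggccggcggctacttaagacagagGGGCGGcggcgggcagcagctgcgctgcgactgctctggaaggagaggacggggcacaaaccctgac
The H19 promoter held neither motif and 6 CG pairs, the IGFBP3 promoter 2 GC boxes and 36 CG pairs, the IGFBP4 promoter 2 GC boxes, 1 TATA box and 30 CG pairs, and the IGFBP6 promoter 1 GC box and 12 CG pairs. Of all 35116 promoters in the table, 45.0% held a GC box and 11.5% a TATA box, and the median promoter had 14 CG pairs. IGFBP3 and IGFBP4, which had opposite patterns across libraries, thus both had CG-rich promoters with 2 GC boxes. A match describes letters only.

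IGF2 encodes the fetal growth factor that binds IGF1R, IGF2R and one form of the insulin receptor. Its level was 177 and 103 FPKM in HepG2 WT, 41.6 and 184 FPKM in HepG2 SR, 0.00933 and 11.5 FPKM in Huh7 WT, and it was listed at 0 and at 126 FPKM in Huh7 SR. IGF2 was thus high in all libraries labelled HepG2, while the libraries labelled Huh7 ranged from none detected to the HepG2 level. The group means ranked as HepG2 WT (140 ± 52.7 FPKM, SD, n = 2), HepG2 SR (113 ± 101), Huh7 SR (63.2 ± 89.3) and Huh7 WT (5.77 ± 8.15), and each neighbouring pair in that order overlapped in range. In HepG2 SR versus HepG2 WT the log2 fold change was -0.61 (SE 2.23, 95% interval -5.92 to 4.70), and in Huh7 SR versus Huh7 WT it was 1.67 (SE 2.23, 95% interval -3.64 to 6.98). Neither passed the test. A log2 fold change here is a difference of log2(FPKM + 1), which understates the change of low genes. In HepG2 the SR to WT ratio was 0.235 for the libraries numbered 1 and 1.79 for those numbered 2.

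H19 was low in most libraries. Its level was 0.0389 and 0.0612 FPKM in HepG2 WT, 0.00306 and 1.55 FPKM in HepG2 SR, 3.85 and 0.0619 FPKM in Huh7 WT, and 17.4 and 0.111 FPKM in Huh7 SR. The 3 libraries at 1 FPKM or more were the ones that stand apart, 1 in each of HepG2 SR, Huh7 WT and Huh7 SR. IGF2 was near 0 in the Huh7 replicate 1 libraries, where H19 was highest, but HepG2 SR replicate 2 held the highest IGF2 of all libraries together with H19 at 1.55 FPKM. Over the 8 libraries the r of IGF2 with H19 was -0.77, a description of libraries that share their profile within sets. Group means of H19 ranked as Huh7 SR (8.77 ± 12.2 FPKM, SD, n = 2), Huh7 WT (1.96 ± 2.68), HepG2 SR (0.778 ± 1.10) and HepG2 WT (0.05002 ± 0.0158), with overlap between each neighbouring pair. The log2 fold change was 0.61 (SE 1.34, 95% interval -2.57 to 3.79) in HepG2 SR versus HepG2 WT and 0.996 (SE 1.34, 95% interval -2.19 to 4.18) in Huh7 SR versus Huh7 WT, and neither passed the test.

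**Figure D1:**
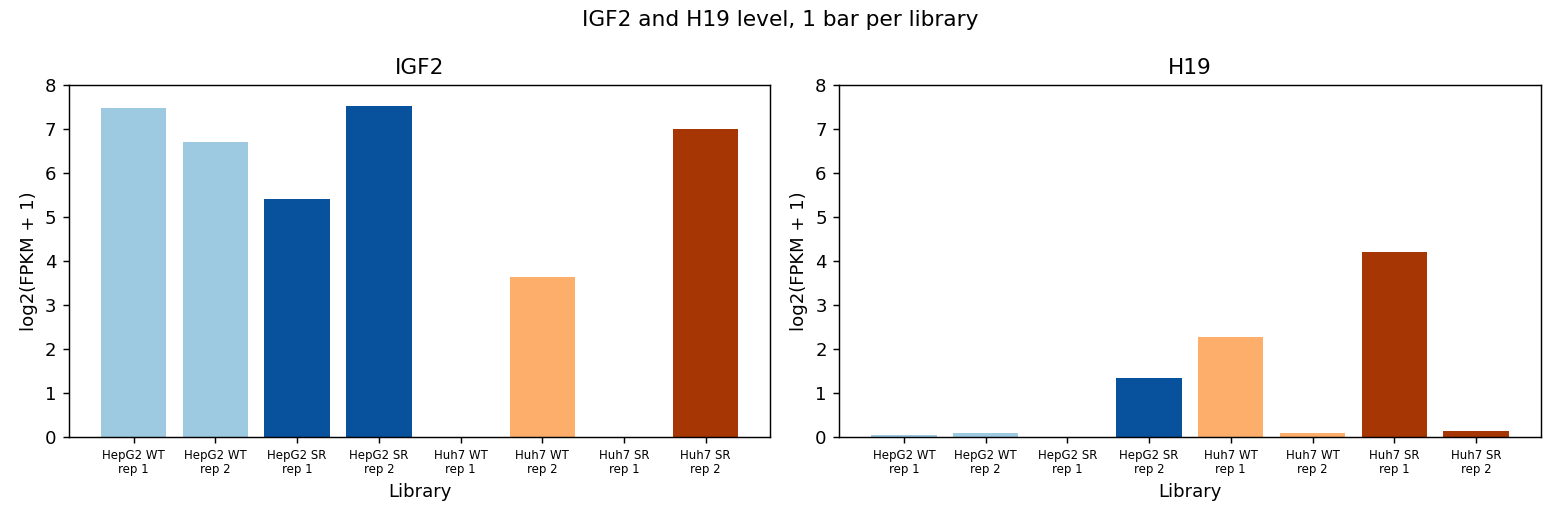
Level of IGF2 (left) and H19 (right) as log2(FPKM + 1), 1 bar per library, with light and dark shades for WT and SR. IGF2 was at or near 0 in both Huh7 replicate 1 libraries, and H19 reached 1 FPKM in 3 libraries, 2 of which are those.

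Both receptors were detected in every library. IGF1R, the signalling receptor, was at 9.69 and 10.5 FPKM in HepG2 WT, 10.2 and 4.63 FPKM in HepG2 SR, 6.02 and 7.70 FPKM in Huh7 WT, and 2.48 and 11.9 FPKM in Huh7 SR. Its 3 lowest values were in the libraries that stand apart. IGF2R, the clearance receptor, was at 72.8 and 52.9 FPKM in HepG2 WT, 58.9 and 18.4 FPKM in HepG2 SR, 48.1 and 56.5 FPKM in Huh7 WT, and 30.8 and 37.7 FPKM in Huh7 SR. In Huh7 both IGF2R values of SR lay below both of WT, and in HepG2 the groups overlapped. The log2 fold change of IGF2R was -0.89 (SE 0.54, 95% interval -2.18 to 0.40) in HepG2 and -0.60 (SE 0.54, 95% interval -1.89 to 0.70) in Huh7. The log2 fold change of IGF1R was -0.49 (SE 0.66) in HepG2 and -0.22 (SE 0.66) in Huh7. None of these passed the test. Per unit of transcript length, IGF2R exceeded IGF1R by 3.16 to 12.4 times across the libraries, the ends of that range being the Huh7 SR libraries.

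IGFBP1, a hepatocyte product, dominated the binding proteins. Its level was 607 and 371 FPKM in HepG2 WT, 249 and 2.52 FPKM in HepG2 SR, 842 and 207 FPKM in Huh7 WT, and 226 and 781 FPKM in Huh7 SR. In 7 libraries it lay above at least 98.6% of the genes tested, and in HepG2 SR replicate 2 above 32.2%. Both HepG2 SR values lay below both HepG2 WT values, and the Huh7 groups overlapped. The log2 fold change was -4.004 (SE 1.85, 95% interval -8.39 to 0.38, adjusted p = 0.956 by limma) in HepG2 SR versus HepG2 WT, and 0.01 (SE 1.85, 95% interval -4.38 to 4.40) in Huh7 SR versus Huh7 WT. The HepG2 value rested on HepG2 SR replicate 2: it was -0.93 without that library and -7.08 without HepG2 SR replicate 1. In Huh7 the SR to WT ratio of IGFBP1 was 0.268 for the libraries numbered 1 and 3.77 for those numbered 2. The group means ranked as Huh7 WT (525 ± 449 FPKM, SD, n = 2), Huh7 SR (503 ± 393), HepG2 WT (489 ± 167) and HepG2 SR (126 ± 174), and only the last neighbouring pair did not overlap.

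IGFBP2, IGFBP4 and IGFBP6 had nearly the same pattern as each other. IGFBP4, which inhibits IGF action until it is cleaved by the protease PAPPA, was at 110 and 103 FPKM in HepG2 WT, 49.95 and 1.25 FPKM in HepG2 SR, 0.147 and 38.2 FPKM in Huh7 WT, and 0.192 and 34.2 FPKM in Huh7 SR. IGFBP2, which binds both ligands, was at 7.20 and 4.39 FPKM in HepG2 WT, 2.53 and 0.335 FPKM in HepG2 SR, 0.0331 and 3.33 FPKM in Huh7 WT, and listed at 0 and at 4.98 FPKM in Huh7 SR. IGFBP6, which prefers IGF2, was at 10.04 and 8.92 FPKM in HepG2 WT, 3.53 and 1.25 FPKM in HepG2 SR, listed at 0 and at 5.63 FPKM in Huh7 WT, and listed at 0 and at 3.30 FPKM in Huh7 SR. All 3 genes were lowest in the libraries that stand apart, and in HepG2 both SR values of each lay below both WT values. Over the 8 libraries r was 0.97 for IGFBP2 with IGFBP4 and for IGFBP4 with IGFBP6. The log2 fold changes in HepG2 SR versus HepG2 WT were -3.33 (SE 2.28) for IGFBP4, -1.61 (SE 1.04) for IGFBP2 and -1.71 (SE 1.03) for IGFBP6, none of which passed the test. In Huh7 SR versus Huh7 WT they were -0.05 (SE 2.28), 0.21 (SE 1.04) and -0.31 (SE 1.03).

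IGFBP7, a secreted protein of low affinity for the ligands, was at 13.3 and 11.3 FPKM in HepG2 WT, 3.15 and 3.88 FPKM in HepG2 SR, 0.0332 and 0.746 FPKM in Huh7 WT, and 0.0742 and 3.86 FPKM in Huh7 SR. In HepG2 the groups did not overlap and HepG2 SR replicate 2 lay beside its group partner, unlike for IGFBP1. The log2 fold change was -1.56 (SE 0.71, 95% interval -3.25 to 0.12, adjusted p = 0.956 by limma) in HepG2 and 0.77 (SE 0.71, 95% interval -0.92 to 2.45) in Huh7. The difference between the lines was 2.33 (SE 1.002, 95% interval -0.05 to 4.71, adjusted p of 0.9998 by limma), which did not pass the test either. The HepG2 value was -1.68 to -1.45 with any 1 library left out. Exons of IGFBP7 overlap those of POLR2B on the opposite strand, and whether reads were counted by strand is not stated. POLR2B was at 33.6 to 61.2 FPKM in all libraries, also where IGFBP7 was at 0.0332 FPKM. Across libraries IGFBP7 had an r of 0.90 with IGF2.

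IGFBP3, the main carrier of the ligands in serum, ran the other way. It was at 0.213 and 0.648 FPKM in HepG2 WT, 0.169 and 9.60 FPKM in HepG2 SR, 15.3 and 0.716 FPKM in Huh7 WT, and 12.9 and 3.98 FPKM in Huh7 SR. Its 3 highest values were in the libraries that stand apart, and its r over the 8 libraries was -0.95 with IGFBP4 and 0.82 with H19. IGFBP3 (chr7:45912245-45921874) lies beside IGFBP1 (chr7:45888357-45893668) on the opposite strand, and the r between these neighbours was -0.26. The log2 fold change of IGFBP3 was 1.32 (SE 1.34) in HepG2 and 0.65 (SE 1.34) in Huh7, and neither passed the test.

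Summed over the 6 binding protein genes, the level was 239 to 858 FPKM in 7 libraries and 18.8 FPKM in HepG2 SR replicate 2. IGFBP1 made up 74.3% to 98.2% of that sum in the 7 libraries. In HepG2 SR replicate 2 the leading gene was IGFBP3, with 51.0%. IGFBP1 thus led in 7 libraries and not in 1, whereas IGFBP2, IGFBP4 and IGFBP6 were each lower in all 3 libraries that stand apart than in any of the 5. The share of all genes that separated these sets was not counted, so the pattern is not shown to be particular to these genes.

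**Figure D2:**
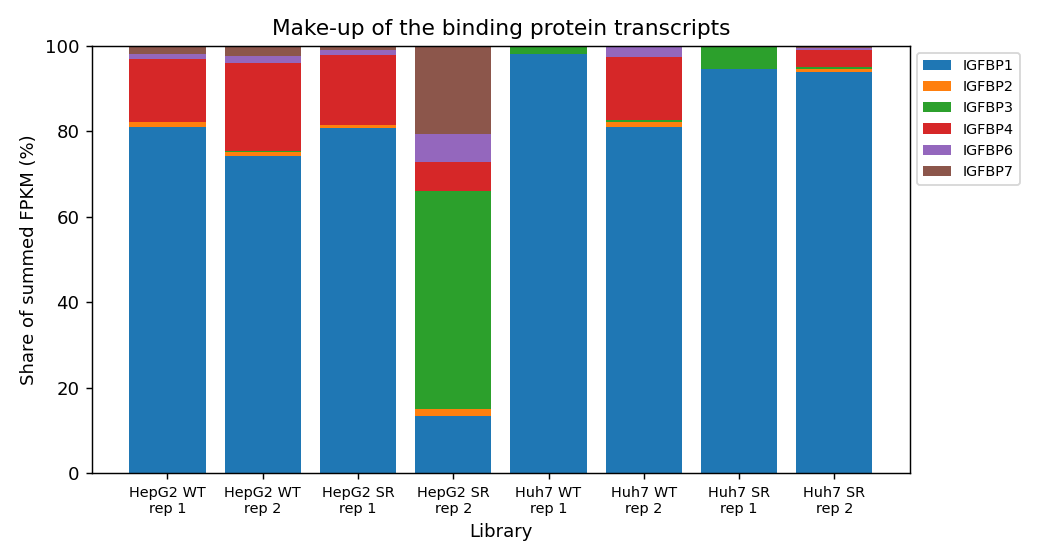
Share of each binding protein gene in their summed FPKM (%), 1 bar per library. IGFBP1 fills most of 7 bars, and IGFBP3 makes up 51.0% of the bar of HepG2 SR replicate 2.

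**Figure D3:**
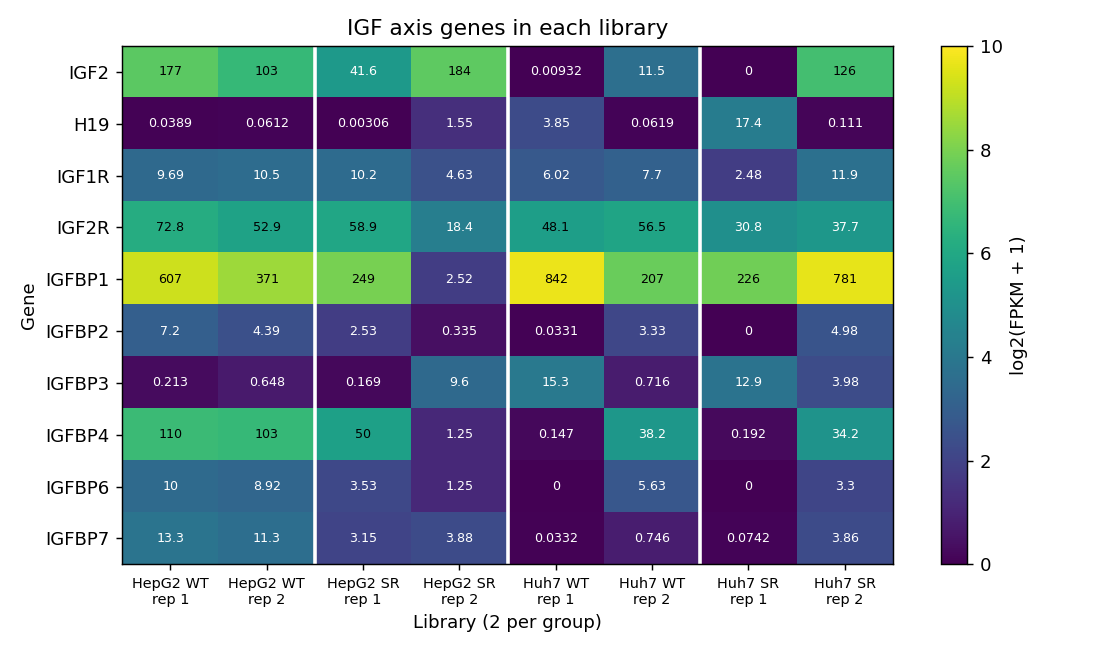
Level of the 10 genes in the 8 libraries, coloured by log2(FPKM + 1) with the FPKM printed in each cell and white lines between groups. HepG2 SR replicate 2 and both Huh7 replicate 1 libraries differ from their group partners in IGFBP4, IGFBP6, IGFBP3 and H19.

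Whether resistance went with a change in these genes was read from the fit over all genes, with a gene called at an unadjusted p under 0.05 and a log2 fold change of at least 0.5 in size. In HepG2 SR versus HepG2 WT, 0 of the 10 members were called, where 2.14% of all 15173 genes were, and 0 members had an unadjusted p under 0.05 in limma. The groups did not overlap for 5 members (IGFBP1, IGFBP2, IGFBP4, IGFBP6 and IGFBP7), each with SR below WT, and they did not overlap for 38.2% of all genes. Of the 10 members, 8 had negative and 2 positive log2 fold changes, with a median of -1.23 against -0.03 over all genes tested. In Huh7 SR versus Huh7 WT, 0 of the 10 were called by limma, where 1.87% of all genes were, 0 had an unadjusted p under 0.05, and the groups did not overlap for 1 member, IGF2R, where 22.0% of all genes did not. In Huh7, 6 log2 fold changes were positive and 4 negative, with a median of 0.11 against -0.05 over all genes. For the difference between the lines in the SR versus WT change, 0 of the 10 members were called by limma or had an unadjusted p under 0.05, where 0.606% of all genes were called. At an adjusted p under 0.05, 0 genes of any kind were called in these comparisons, where 325, 283 and 92 genes had an unadjusted p under 0.05.

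**Figure D4:**
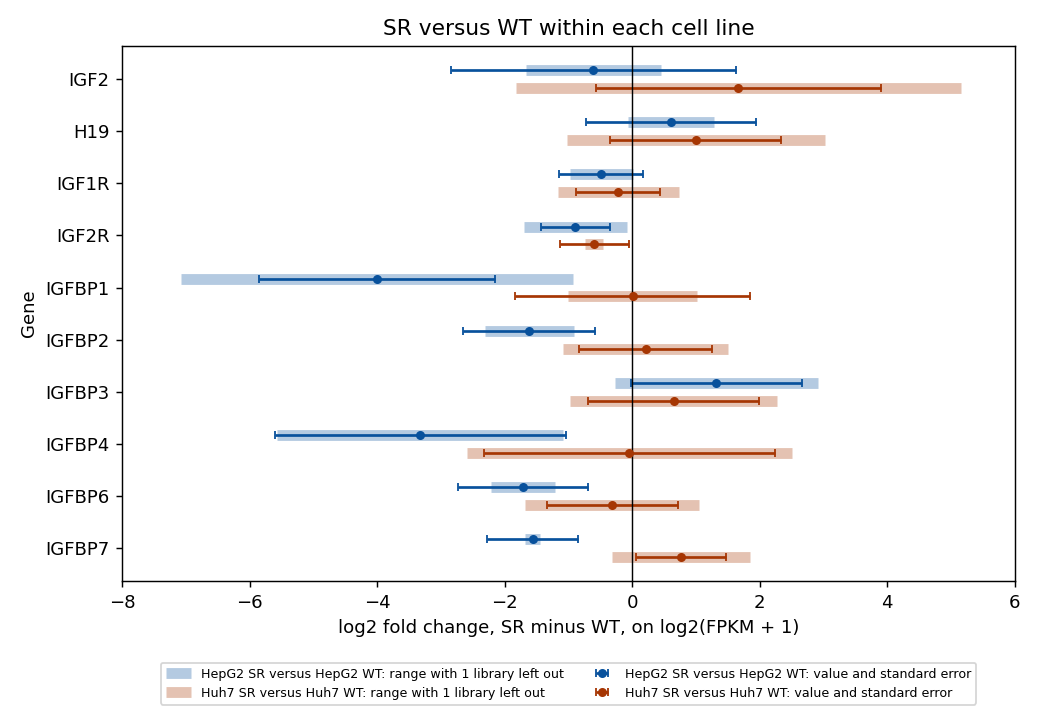
Log2 fold change of SR minus WT on log2(FPKM + 1) for the 10 genes in HepG2 (blue) and Huh7 (red), with the standard error as thin bars and, as pale bands, the range of the value when each of the 8 libraries is left out in turn. All bands of Huh7 but that of IGF2R cross 0, and the 6 HepG2 bands wholly below 0 are IGF2R, IGFBP1, IGFBP2, IGFBP4, IGFBP6 and IGFBP7.

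Without the 3 libraries that stand apart, 8 of the 10 members stayed in the fit (H19 and IGFBP3 no longer passed the filter), which then had 5 libraries, 1 residual degree of freedom and a single library in each of HepG2 SR, Huh7 WT and Huh7 SR, assumed to vary like the pair of HepG2 WT. In HepG2, 4 of the 8 were then called lower, IGF2 (log2 fold change -1.67), IGFBP4 (-1.08), IGFBP6 (-1.21) and IGFBP7 (-1.68), where 3.48% of all genes were called. In Huh7, 3 of the 8 were called higher, IGF2 (3.35), IGFBP1 (1.91) and IGFBP7 (1.48), where 13.8% of all genes were called. IGF2 and IGFBP7 thus had opposite directions in the lines in this fit, and 3 of the 8 members were called for the difference between the lines, where 7.24% of all genes were. This fit was chosen after the values were seen, and its spread comes from the pair of HepG2 WT libraries alone.

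Between the lines, with WT and SR averaged, 2 of 10 members passed the thresholds, both lower in Huh7, where 4.90% of all genes passed and 2.87% passed as lower. The difference of Huh7 from HepG2 was -4.12 on the log2 scale for IGF2 (SE 1.58, 95% interval -7.87 to -0.36, adjusted p = 0.813 by limma). It was -2.14 for IGFBP7 (SE 0.50, 95% interval -3.33 to -0.95, adjusted p = 0.813 by limma). The ranges of the lines overlapped for all 10 members, so 0 of 10 were separate, where 3.80% of all genes were. The IGF2 call was lost when any of 5 libraries was left out, namely HepG2 WT replicate 1 (-3.92), HepG2 WT replicate 2 (-4.31), HepG2 SR replicate 2 (-3.59), Huh7 WT replicate 1 (-3.21) or Huh7 SR replicate 1 (-2.37). The IGFBP7 call was kept with each library left out (-2.69 to -1.60). Without the 3 libraries that stand apart the differences were -0.93 for IGF2 and -1.35 for IGFBP7, both called, in a fit that called 10.1% of all genes. ALB and 5 other hepatocyte markers out of 10 were also called lower in Huh7, with ALB at -4.13. The difference in IGF2 went together with that in these 6 markers, whereas FGB was at 1.68 (SE 2.26) and was not called. The part of the markers was not tested.

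The other ligands were at or near the limit of detection. IGF1 and INS were listed at 0 in 7 libraries and were at 0.108 and 0.103 FPKM in HepG2 WT replicate 2, a library with 38276 genes above 0 where the others had 27188 to 29071. INS-IGF2, a read-through transcript that shares exons with IGF2, was listed at 0 in all 8, and IGFBP5 was at no more than 0.172 FPKM. INSR, the insulin receptor, was at 5.47 to 11.5 FPKM and thus in the range of IGF1R. IGF2BP1, IGF2BP2 and IGF2BP3, which bind IGF2 mRNA, were at 13.8 to 81.6 FPKM in all libraries, also where IGF2 was not detected.

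Of 78 other genes listed for the axis (ligands, receptors, binding proteins, proteases, adaptors and signalling genes, regulators, neighbours at 11p15.5 and imprinted genes), 49 were tested. In HepG2 SR versus HepG2 WT, 0 of the 49 were called or had an unadjusted p under 0.05 in limma, where 2.14% of all genes were called. Their median log2 fold change was -0.16. In Huh7 SR versus Huh7 WT, 2 rose and 1 fell by these thresholds, where 0.942% of all genes were called higher and 0.923% lower, with an adjusted p of 0.99996 by limma for each of the 3. MRPL23, a mitochondrial ribosomal protein gene 54.2 kb from the start of H19, rose by 1.29 on the log2 scale (SE 0.41), its WT libraries being at 15.8 and 7.48 FPKM and its SR libraries at 24.7 and 32.2 FPKM. HMGA2, a chromatin protein known to raise IGF2 transcription, rose by 1.09 (SE 0.41), with WT at 23.6 and 18.97 FPKM and SR at 32.1 and 66.2 FPKM. GRB10, an imprinted adaptor that inhibits IGF1R and insulin receptor signalling, had a log2 fold change of -1.42 (SE 0.59), with WT at 9.60 and 15.4 FPKM and SR at 4.11 and 3.77 FPKM. The Huh7 groups did not overlap for any of the 3 genes, where they did not for 22.0% of all genes. The 3 were picked by their call in this same comparison, so the lack of overlap adds no support. The MRPL23 call was lost without Huh7 WT replicate 2 (0.80) or Huh7 SR replicate 2 (1.11), and both it and the HMGA2 call were lost with each cell line fitted alone. The HMGA2 call was lost without any of 6 libraries (all but HepG2 SR replicate 1 and Huh7 SR replicate 1), with values of 0.58 to 1.24 in those fits, and the GRB10 call without any of 6 (all but the HepG2 SR libraries), with values of -1.74 to -1.10. The GRB10 call was also lost with no filter (-1.42) and with quantile normalization (-1.37). Without the libraries that stand apart all 3 stayed called. Among liver markers, TF (transferrin, 2.13, SE 0.70) and HNF4A (0.96, SE 0.40) also rose in Huh7 SR at these thresholds, each with an adjusted p of 0.99996 by limma. There 10 of the 10 hepatocyte markers had positive log2 fold changes, as had 6779 of all 15173 genes. The Huh7 SR libraries differed widely, with ALB at 42.3 and 2891 FPKM and FGB at 327 and 2.95 FPKM. The TF call was lost without Huh7 WT replicate 1 (1.85), without Huh7 SR replicate 2 (1.01) and with each cell line fitted alone, and the HNF4A call without either HepG2 SR library, Huh7 WT replicate 2, either Huh7 SR library (0.70 to 1.03 over these fits) or the libraries that stand apart (1.14), and also with TPM (0.88), each cell line fitted alone and eBayes without trend. In Huh7 versus HepG2, 3 of the 49 were called lower, where 2.87% of all genes were. They were the PI3 kinase subunit gene PIK3R2 (-0.77, SE 0.23), HMGA2 (-0.75, SE 0.29) and the protease gene CTSD (-0.66, SE 0.26). Each had an adjusted p of 0.813 by limma, and the 3 were not refitted under the other settings in this comparison. For the difference between the lines 0 of the 49 were called by limma or had an unadjusted p under 0.05, where 0.606% of all genes were called.

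Some listed neighbours and imprinted genes also separated the 3 libraries that stand apart from the 5, as H19, IGF1R, IGFBP2, IGFBP3, IGFBP4 and IGFBP6 did. These sets were drawn from the same data, and the share of all genes that separated them was not counted. H19, IGFBP3, CD81 and PLAGL1 passed the filter on low values only with those 3 libraries included, so their separation was partly fixed in advance. The genes of this paragraph were chosen after their values were seen. CD81, a tetraspanin 375 kb from the start of H19, was at 53.0, 70.4 and 60.4 FPKM in the libraries that stand apart (in the order HepG2 SR, Huh7 WT, Huh7 SR) and at 0.00909 to 0.318 FPKM in the 5 other libraries. PLAGL1, an imprinted zinc finger gene whose product activates IGF2 and H19, was at 14.2, 10.6 and 7.39 FPKM in the same 3 libraries and at no more than 0.148 FPKM in the others. DLK1 and PEG3, paternally expressed imprinted genes, had the reverse pattern, at 33.0 to 62.1 and 29.3 to 113 FPKM in the 5 libraries and at no more than 0.0102 and 0.0414 FPKM in the 3. SNRPN was at 0.0494 FPKM in HepG2 SR replicate 2 alone and at 36.8 to 104 FPKM in the other 7, as IGFBP1 was low in that library alone. IRS2, a docking protein of IGF1R and the insulin receptor, was at 9.56 and 5.78 FPKM in the Huh7 replicate 1 libraries and at no more than 0.0243 FPKM in the rest. IRS2 passed the filter only through those Huh7 libraries, so its pattern too was partly fixed in advance. CTSD and TSSC4, in the same region as H19, were expressed in all libraries, at 114 to 284 and 8.28 to 21.2 FPKM.

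**Figure D5:**
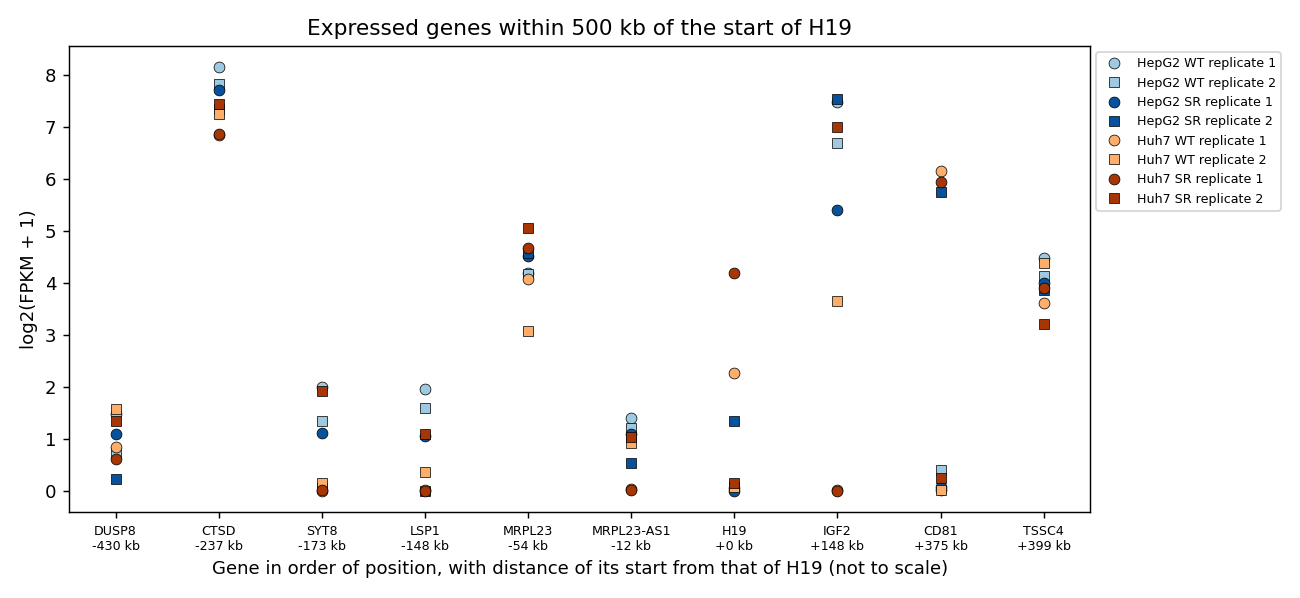
Level as log2(FPKM + 1) of the 10 tested genes whose starts lie within 500 kb of that of H19, in order of position with 1 point per library. CD81 and H19 are high in the same 3 libraries, while CTSD, MRPL23 and TSSC4 are expressed in all 8.

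The genes most like a member were taken as those with the highest r of log2(FPKM + 1) over the 8 libraries among the tested genes with a mean of at least 10 FPKM. For IGF2 they were NFE2L3 (0.99), NES (0.98) and SERPIND1 (0.98). SERPIND1, heparin cofactor II, was at 95.8 to 137 FPKM in the HepG2 libraries and Huh7 SR replicate 2, at 9.91 FPKM in Huh7 WT replicate 2, and at 0.330 and 0.439 FPKM in the Huh7 replicate 1 libraries. For H19 they were TM4SF4 (0.99), F12 (0.99) and APOO (0.98), and F12, coagulation factor XII, was at 54.2 FPKM in Huh7 SR replicate 1, 19.2 FPKM in Huh7 WT replicate 1 and 1.26 to 4.40 FPKM elsewhere. For IGFBP1 they were SNHG14, BIRC6 and PIEZO2 (each 0.97), of which SNHG14 was at 0.00604 FPKM in HepG2 SR replicate 2 and at 11.2 to 30.5 FPKM in the others. An r of at least 0.95 was reached by 23 of 6409 genes for IGF2, 19 of 6410 for H19 and 10 of 6409 for IGFBP1. For IGFBP4 it was 134 of 6409 genes and for IGFBP2 85 of 6410. These r values describe 8 libraries that fall into 3 sets of like profile.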

How the data were processed

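Polyadenylated RNA of WT and SR cells of both lines was sequenced as 8 libraries, 2 for each of the 4 groups. The authors deposited FPKM values, 1 per gene and library (read counts scaled for library depth and transcript length), without pooling replicates. The submitters' processing notes name fastp 0.20.0 and GRCh38. The aligner, quantifier and annotation are not given in the sources used here, and 5013 of 63241 identifiers are not in GENCODE release 29, which was used for positions. Of the Ensembl identifiers, 99.1% had a symbol in the reference table. Groups follow the labels alone. FPKM are not counts, so the true depth is unknown. Matching low values to whole reads gave 27.7 to 54.5 M reads per library, an estimate only, since 9.69% to 15.4% of values came within 0.02 of a whole read where 4% would by chance. No intervals of counting error were given.

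For testing, limma 3.58.1 (R 4.3.3) was fitted to log2(FPKM + 1) with 1 mean per group, a trended eBayes prior and Benjamini-Hochberg adjustment, over the 15173 genes that reached 1 FPKM in 2 or more libraries. Residual degrees of freedom were 4, and the median posterior SD was 0.484. The fit was also run on simulated data with independent noise between libraries and changes planted in a single group. Those data lacked the sets of like profile, so they do not show how the fit handles the real libraries. A gene was called at an unadjusted p under 0.05 and a log2 fold change of at least 0.5 in size, after the study's thresholds. Named were all 10 members, listed genes called in SR versus WT, 6 marker genes as ranges, and the 3 genes most like IGF2, H19 and IGFBP1. Other genes named (overlapping genes, further genes of the listed groups, and markers that ran the other way) fall outside that rule and were chosen after their values were seen. The members and lists were chosen with earlier results of these data known.

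The alternatives varied the pseudocount (0.1), the filter (0.1 FPKM or none), the scaling (TPM or quantile), the fit (each line alone, blocked by replicate number, or an untrended prior), the call (a log2 fold change of 1, or the adjusted p) and the libraries (each left out in turn, and, added after the values were seen, those that stand apart left out). Sequences came from RefSeq (GRCh38.p14).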

Additional observations from a re-analysis of the deposited data

How the results depend on the processing

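The number of members called in HepG2 SR versus HepG2 WT (0) was 2 with each cell line fitted alone (IGFBP6 and IGFBP7, where 3.16% of all genes were called), 4 without the libraries that stand apart, and 0 to 2 with 1 library left out, the 2 being IGF2R and IGFBP1 without HepG2 SR replicate 1, where 11.6% of all genes were called. In Huh7 SR versus Huh7 WT (0) the number changed without the libraries that stand apart and with some libraries left out in turn, where a group held a single library. Without Huh7 SR replicate 1 the log2 fold change was 5.16 for IGF2 and 1.85 for IGFBP7. In Huh7 versus HepG2 (2) it was 0 at an adjusted p under 0.05 and 1 to 4 with 1 library left out, and for the difference between the lines (0) it was 3 without the libraries that stand apart and 0 to 2 with 1 left out. The cause of these shifts was not tested. Over all genes, calls in HepG2 (325) came to 504 with the filter at 0.1 FPKM and 58 to 1744 with 1 library left out, in Huh7 (283) to 124 with each line fitted alone and 153 to 816, for the difference between the lines (92) to 254 with that filter, 168 with none, 152 with TPM and 23 to 944, and in Huh7 versus HepG2 (744) to 327 at a log2 fold change of 1 and 232 to 1716.

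The replicate numbers do not mark a stated shared culture. Deviations of same-numbered libraries had an r of 0.12 between HepG2 WT and SR, 0.80 between Huh7 WT and SR, and -0.56 to -0.04 between the lines. With the replicate number as a block, 0 members were called in each SR versus WT comparison. Of all genes, 2.16% were then called in HepG2 and 1.54% in Huh7. In Huh7 versus HepG2, 2 members were called, where 5.14% of all genes were. For the difference between the lines 1 member was called, IGFBP7 (2.33, SE 0.90, adjusted p of 0.9998 by limma), where 0.600% of all genes were. IGFBP7 was not called without the block.

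Directions turned as follows. IGF1R was at 0.0080 in HepG2 and 0.57 in Huh7, and IGFBP2 at 0.072 in Huh7 versus HepG2, without the libraries that stand apart. In Huh7, IGFBP1 was at -0.085 with TPM and -0.16 with quantile normalization, and IGFBP4 at 0.042 with a pseudocount of 0.1 and 0.050 with quantile normalization. With 1 library left out, values in HepG2 SR versus HepG2 WT spanned -0.066 to 1.28 for H19, -0.98 to 0.0080 for IGF1R, -1.67 to 0.45 for IGF2 and -0.27 to 2.91 for IGFBP3. In Huh7 SR versus Huh7 WT they spanned -1.03 to 3.02 for H19, -1.17 to 0.73 for IGF1R, -1.83 to 5.16 for IGF2, -1.002 to 1.02 for IGFBP1, -1.08 to 1.5 for IGFBP2, -0.98 to 2.28 for IGFBP3, -2.60 to 2.50 for IGFBP4, -1.68 to 1.05 for IGFBP6 and -0.32 to 1.85 for IGFBP7. In Huh7 versus HepG2 they spanned -0.85 to 0.10 for IGF1R and -0.51 to 0.31 for IGF2R. With 2 libraries per group and some groups split across profiles, intervals of several log2 units limit what could be detected.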
